A study of Mus musculus with 8 samples.

Results

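Transcript abundance of 9 genes of transcytosis, caveolae and fenestrae was compared between brain endothelial cells (ECs) of mutant and wild-type mouse pups. The genes were taken by name as *Mfsd2a*, *Plvap*, *Cav1*, *Cav2*, *Cavin1*, *Cavin2*, *Cavin3*, *Ehd2* and *Pacsin2*, and all 9 of them were found among the 49315 genes counted and passed the filter on low counts. Mutant pups carried *R26*GT-*Map2k1*-GFP/+, which expresses a *Map2k1* K57N cDNA from the Rosa locus once a stop cassette is removed, together with *Tg-Cdh5CreER*+/-, a tamoxifen-activated Cre driven by the endothelial *Cdh5* promoter. Control pups are labelled as wild type, and the study's texts differ on whether controls carried the Cre transgene. Both parent lines were kept on C57BL/6J, and litters were given 100 µg of tamoxifen at postnatal day 1. Whole brains were taken at day 9 and cells were pulled down with beads against CD31, 1 library per pup, with 4 mutant and 4 wild-type pups. Per the study's methods, each litter gave as many wild-type as mutant pups, and the wild-type pups were picked at random within it. By a PCR assay of the study, only a minority of the ECs in a mutant pup had recombined the allele. A mutant library is thus a mixture of recombined and other ECs. Mutant ECs in the text below means this mixture, and which of its cells changed was not tested.

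Brain endothelium carries little vesicle traffic from blood to tissue compared with vessels elsewhere. Caveolae are flask-shaped pits of the plasma membrane built from caveolins, which sit in the membrane, and cavins, which coat it from the cytosol, while EHD2 holds the neck of the pit and PACSIN2 helps to bend the membrane. MFSD2A, a lipid transporter of brain endothelium, is known to keep caveolae-mediated transcytosis low, and PLVAP forms the diaphragms that span caveolae and the pores called fenestrae, and is sparse in mature barrier vessels.

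*Plvap* rose 9.56-fold and *Cavin3* 3.46-fold in mutant ECs, while *Mfsd2a* fell to 19.8% of its wild-type level. Within the caveola coat the members moved in different directions. *Ehd2* rose 1.78-fold and *Pacsin2* 1.20-fold, *Cav2* fell to 65.9% and *Cavin2* to 57.3% of wild type, and *Cav1* and *Cavin1* did not pass the test. In all, 4 of the 9 genes were higher and 3 were lower by the quasi-likelihood test of edgeR, at a Benjamini-Hochberg adjusted p under 0.05 over 16887 genes, where 21.5% of all genes tested were higher and 22.9% lower. A call in either direction was thus common in these data, at 44.4% of all genes. With a change of over 2-fold also required, *Plvap* and *Cavin3* were higher and *Mfsd2a* was lower, against 5.90% and 8.05% of all genes. The libraries of the groups did not overlap for the same 4 higher and 3 lower members, and for 20.6% and 21.9% of all genes tested.

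Total counts per library on genes were between 24833373 and 34196955. *Map2k1*, whose reads include those of the recombined allele, checked the labels, with 631, 428, 428 and 483 CPM in mutant libraries 1 to 4 and 50.7 to 59.4 CPM in wild-type libraries. CPM is the count of a gene relative to the library total, which was scaled by the TMM method of edgeR. All 10 markers of ECs were present, 2 of them higher and 3 lower in mutants, with a summed level of 12432 to 15061 CPM in mutant and 11764 to 14227 CPM in wild-type libraries. Caveola genes are also expressed by mural cells and fibroblasts, and summed markers of these overlapped between the groups. Pericyte markers (2 of 8 higher) summed to 740 to 1176 CPM in mutant and 654 to 1185 CPM in wild-type libraries. *Rgs5*, which was not called, made up 502 of the mean of 886 CPM in mutants and 683 of 964 CPM in wild type. *Abcc9* (34.0 CPM in wild type, 117 CPM in mutants) and *Kcnj8* (10.3 and 18.2 CPM) were the 2 higher markers, and 6 were not called. Smooth muscle markers (1 of 6 higher) summed to 83.0 to 208 and 97.7 to 230 CPM, and fibroblast markers (2 of 6 higher, 1 lower) to 913 to 1160 and 701 to 1006 CPM. *Col1a1* (569 CPM) and *Col1a2* (444 CPM) made up most of the fibroblast mean of 1042 CPM in mutants. A sum led by few genes can overlap while single markers differ. Choroid plexus epithelium (112 to 244 against 108 to 615 CPM, 1 of 6 higher and 2 lower) and microglia with macrophages (110 to 431 against 113 to 477 CPM, 8 of 8 not called) overlapped as well. Markers of oligodendrocyte lineage (29.9 to 58.7 against 96.1 to 265 CPM, 6 of 6 lower), red blood cells (87.0 to 285 against 531 to 922 CPM, 6 of 6 lower) and neurons (19.4 to 28.0 against 29.7 to 67.1 CPM, 4 of 6 lower) were lower in mutant libraries, and their part in the results was not tested. The neuron marker *Rbfox3* went the other way without a call, with means of 9.91 CPM in mutant and 4.33 CPM in wild-type libraries. The sum of 6 astrocyte markers, of which 1 was called higher and 1 lower, was higher (619 to 744 against 362 to 431 CPM), and *Gja1*, a gap junction gene that endothelium also expresses, made up 656 of the mean of 677 CPM in mutant libraries. No marker was at 0 in all libraries. In such bulk libraries, fewer cells of a type and less RNA per cell cannot be told apart.

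**Figure D1:**
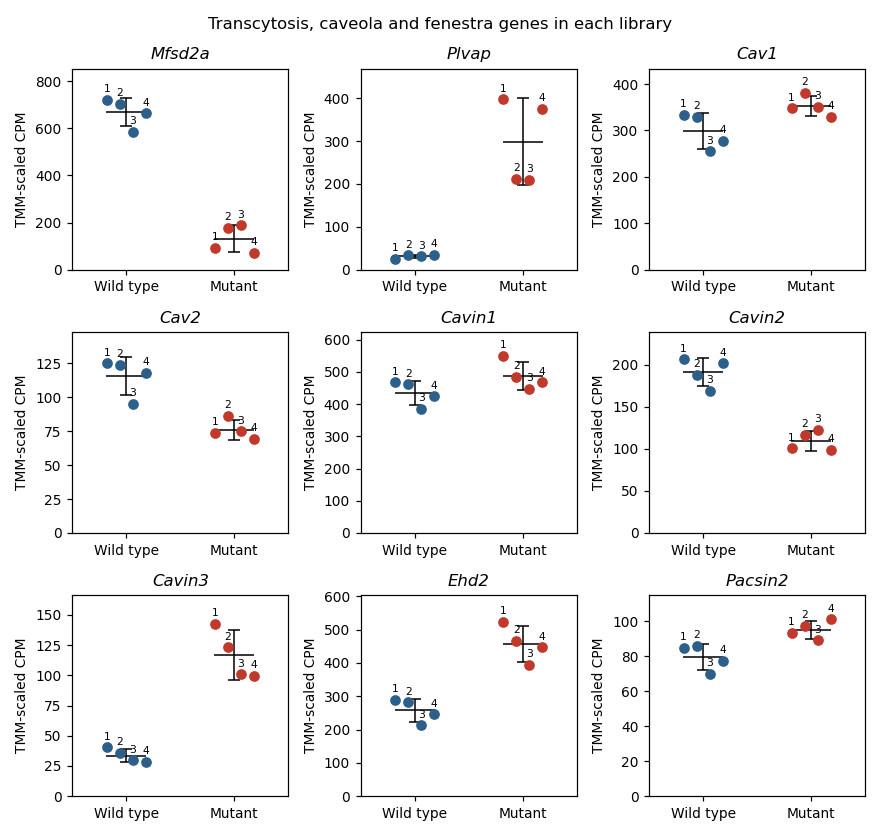
TMM-scaled CPM (vertical axis, from 0) of each of the 9 genes in the 4 wild-type (blue) and 4 mutant (red) libraries, numbered by replicate, with the group mean and SD in black. The groups of *Mfsd2a*, *Plvap* and *Cavin3* lie far apart relative to their levels, and mutant libraries 1 and 4 lie apart from 2 and 3 for *Plvap*.

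The bases before the gene start are shown for the 3 members that fell and for *Cav1*, which lies beside *Cav2* on chromosome 6 and did not fall with it. Each is the 250 bases before the start in RefSeq's GRCm38.p6 annotation, read 5′ to 3′ on the strand of the gene, and each start is the same base as the start of the gene in the count files. Capitals mark exact matches, on either strand, to 1 of 5 motifs. TGANTCA stands for AP-1 factors. CCGGAAG stands for the core bound by ETS factors, of which ACAGGAAG was searched as a variant. GGGNGGG stands for Sp and Kruppel-like factors, and its matches may overlap each other. TATAAA is the box of that name.
Mfsd2a, chr4:122961189-122961438, minus strand: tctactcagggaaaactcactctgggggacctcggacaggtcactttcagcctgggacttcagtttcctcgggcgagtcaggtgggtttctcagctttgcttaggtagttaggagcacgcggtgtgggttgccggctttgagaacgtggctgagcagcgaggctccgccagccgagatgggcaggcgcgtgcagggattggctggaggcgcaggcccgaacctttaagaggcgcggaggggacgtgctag
Cavin2, chr1:51288876-51289125, plus strand: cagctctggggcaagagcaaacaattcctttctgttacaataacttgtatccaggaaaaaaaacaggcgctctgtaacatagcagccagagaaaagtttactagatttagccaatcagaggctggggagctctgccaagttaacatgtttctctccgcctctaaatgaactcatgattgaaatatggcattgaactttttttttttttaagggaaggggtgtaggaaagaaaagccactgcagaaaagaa
Cav2, chr6:17280935-17281184, plus strand: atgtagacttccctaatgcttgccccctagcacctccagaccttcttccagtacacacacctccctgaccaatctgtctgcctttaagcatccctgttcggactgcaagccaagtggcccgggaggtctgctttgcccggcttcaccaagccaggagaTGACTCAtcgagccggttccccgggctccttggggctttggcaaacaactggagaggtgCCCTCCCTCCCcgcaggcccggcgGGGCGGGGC
Cav1, chr6:17306085-17306334, plus strand: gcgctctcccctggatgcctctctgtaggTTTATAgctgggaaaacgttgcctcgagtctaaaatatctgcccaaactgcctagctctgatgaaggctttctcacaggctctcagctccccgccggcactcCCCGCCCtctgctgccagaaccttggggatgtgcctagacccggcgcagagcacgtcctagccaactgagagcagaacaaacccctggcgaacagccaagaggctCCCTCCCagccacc

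The windows searched also held the 50 bases after the start. *Mfsd2a* and *Cavin2* held none of the 5 motifs in these windows. *Cav2* held 1 AP-1 match, starting at position -92 from the gene start, and 4 Sp and Kruppel-like matches. The *Cav1* window shown held 2 Sp and Kruppel-like matches and 1 TATA match, on the opposite strand. A further *Cav1* window, at another start, held none of the 5 motifs. Among other windows not shown, 1 of *Pacsin2*, which rose, held an AP-1 match at position -152. *Ehd2*, which also rose, held 7 Sp and Kruppel-like matches and no AP-1 match. Each *Cavin1* window held 3 Sp and Kruppel-like matches and no AP-1 match. Among the 32851 promoter windows of the same length, 7.81% held an AP-1 match, 8.86% and 3.58% the ETS motifs, 48.1% the Sp and Kruppel-like motif and 13.6% the TATA motif. Of the 9 genes, 7 had a window, and *Plvap* and *Cavin3* had none. A match of letters is a description and shows no binding.

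*Mfsd2a* (ENSMUSG00000028655, chromosome 4 of GRCm38, 122946850 to 122961188) held 722, 704, 586 and 664 CPM in wild-type libraries 1 to 4, and 92.1, 177, 188 and 72.0 CPM in mutant libraries 1 to 4. Every mutant library was below every wild-type library, and mutant libraries 1 and 4 were the lowest. The means were 669 ± 60.5 (SD, n = 4) and 132 ± 58.6 CPM (SD, n = 4). The log2 fold change was -2.34 ± 0.28 (SE, edgeR adjusted p = 1.19e-04), which placed *Mfsd2a* at rank 407 of 16887 genes by size of change. The wild-type libraries varied by 9.04% of their mean and the mutant libraries by 44.3%, the widest relative spread of the 9 genes.

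*Plvap* (ENSMUSG00000034845, chromosome 8, 71497765 to 71511752) went the other way. It held 25.5, 33.7, 31.4 and 34.2 CPM in wild-type libraries 1 to 4, and 397, 212, 210 and 375 CPM in mutant libraries 1 to 4. The lowest mutant library lay far above the highest wild-type library, and mutant libraries 1 and 4 were again the ones farthest from wild type. The means were 31.2 ± 3.98 (SD, n = 4) and 298 ± 102 CPM (SD, n = 4), a log2 fold change of 3.26 ± 0.23 (SE, edgeR adjusted p = 5.78e-06). *Plvap* ranked at 138 by size of change and at 125 by p.

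Mutant libraries 1 and 4, with the highest *Plvap* and the lowest *Mfsd2a*, were also the pair with the highest *Map2k1* among the mutants. With 4 mutant libraries this is a description of these pups and was not tested. Not every called member shared it. *Cav2* and *Cavin2* were also lowest in libraries 1 and 4, while *Cavin3*, *Ehd2* and *Pacsin2* did not have that pair as their highest. *Cavin3* held 143, 123, 101 and 99.3 CPM in mutant libraries 1 to 4. Per length of exon, in RPKM from the TMM-scaled counts and the exon length of each gene, the ratio of *Mfsd2a* to *Plvap* was 25.0, 18.4, 16.5 and 17.1 in wild-type libraries 1 to 4. In mutant libraries it was 0.205, 0.737, 0.791 and 0.169. *Mfsd2a* was thus the more abundant transcript per length in all 4 wild-type libraries and the less abundant one in all 4 mutant libraries.

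**Figure D2:**
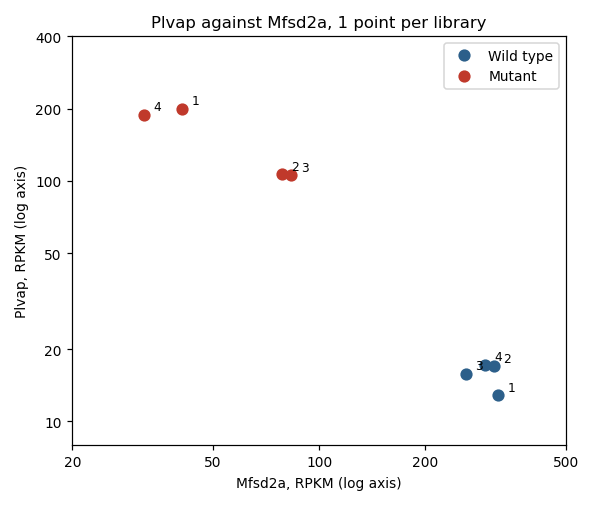
RPKM of *Plvap* (vertical, log axis) against RPKM of *Mfsd2a* (horizontal, log axis), 1 point per library, numbered by replicate, wild type in blue and mutant in red. Wild-type libraries sit at 260 to 321 RPKM of *Mfsd2a* and 12.9 to 17.2 RPKM of *Plvap*, and mutant libraries at 32.0 to 83.5 and 105 to 200 RPKM.

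The genes whose profile over the 8 libraries was most like that of *Mfsd2a*, by the root mean square difference of log2 CPM after centring each gene on its own mean, were *Adamtsl2* (0.0963), the amino acid transporter gene *Slc38a5* (0.129) and the organic anion transporter gene *Slc22a8* (0.137). Their levels were 55.0, 132 and 97.5 CPM in mutant and 291, 628 and 580 CPM in wild-type ECs. The genes most like *Plvap* were the adhesion receptor gene *Adgrg3* (0.158), the Slit receptor gene *Robo1* (0.206) and *Sh3bgrl2* (0.214). Their levels were 160, 80.5 and 196 CPM in mutant and 18.2, 7.01 and 18.4 CPM in wild-type ECs. Among 5413 genes with a mean of at least 1000 counts, these differences rest largely on the gap between the groups that each gene shares.

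Among the caveolins, *Cav1* encodes the caveolin needed to form caveolae in endothelium, and *Cav2* its partner, whose product joins the same oligomers. *Cav2* (ENSMUSG00000000058, chromosome 6, 17281185 to 17289115) held 125, 124, 95.3 and 118 CPM in wild-type libraries 1 to 4 and 73.9, 86.4, 75.0 and 69.3 CPM in mutant libraries. All mutant libraries were below all wild-type libraries, with a log2 fold change of -0.60 ± 0.10 (SE, edgeR adjusted p = 8.69e-04). *Cav1* (ENSMUSG00000007655, chromosome 6, 17306335 to 17341452), which follows *Cav2* on the same strand, held 334, 329, 255 and 278 CPM in wild-type and 348, 381, 351 and 330 CPM in mutant libraries. Mutant library 4 lay within the wild-type range. The log2 fold change of *Cav1* was 0.24 with a 95% interval of 0.02 to 0.45 and an adjusted p of 0.0722 (edgeR's quasi-likelihood test). It passed the threshold with DESeq2 (0.0345), with a block for replicate number (0.0341) or for prefix of the label (0.0207), and without mutant replicate 4 (0.0474) or wild type replicate 1 (0.0348), and the adjusted p ranged from 0.0207 to 0.174 over 17 alternatives.

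The ratio of *Cav1* to *Cav2*, per length, was 2.59, 2.57, 2.59 and 2.28 in wild-type libraries 1 to 4 and 4.56, 4.27, 4.53 and 4.61 in mutant libraries. The ratio therefore varied little within a group, at 2.51 ± 0.149 (SD, n = 4) and 4.49 ± 0.153 (SD, n = 4), and the groups did not overlap.

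Of the cavins, CAVIN1 is required for caveolae to form, CAVIN2 shapes and elongates the membrane, and CAVIN3 joins the coat through CAVIN1. *Cavin3* (ENSMUSG00000037060, chromosome 7, 105480083 to 105482300) rose, with 40.3, 36.0, 29.5 and 28.5 CPM in wild-type libraries 1 to 4 and 143, 123, 101 and 99.3 CPM in mutant libraries. The lowest mutant library was above the highest wild-type library, and the log2 fold change was 1.79 ± 0.15 (SE, edgeR adjusted p = 1.31e-05). Its exons share 374 bases with *Gm45667* on the opposite strand, which had a mean of 2.75 counts per library, and the strand setting of the counting is not given in the sources used here. *Cavin2* (ENSMUSG00000045954, chromosome 1, 51289126 to 51302960) fell, with 207, 188, 169 and 202 CPM in wild-type and 101, 117, 122 and 98.7 CPM in mutant libraries. All mutant libraries were below all wild-type libraries, with a log2 fold change of -0.80 ± 0.09 (SE, edgeR adjusted p = 1.08e-04).

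*Cavin1* (ENSMUSG00000004044, chromosome 11, 100956733 to 100970887) held 468, 462, 385 and 424 CPM in wild-type and 550, 485, 447 and 468 CPM in mutant libraries. The groups overlapped, and the log2 fold change of 0.16 had a 95% interval of -0.04 to 0.37 (adjusted p = 0.167, edgeR's quasi-likelihood test), which leaves room for a change in either direction. With *Cavin1* the most abundant cavin in every library, the make-up of the 3 cavins per length shifted mainly between *Cavin2* and *Cavin3*. *Cavin3* was 10.9%, 10.2%, 9.85% and 8.51% of the summed cavin RPKM in wild-type libraries 1 to 4 and 31.6%, 29.9%, 26.9% and 26.9% in mutant libraries. *Cavin2* was 30.7% ± 1.57 (SD, n = 4) in wild type and 15.0% ± 2.34 (SD, n = 4) in mutants, so the order of *Cavin2* and *Cavin3* was opposite in the groups. *Cavin1* took 59.4% ± 0.987 (SD, n = 4) and 56.2% ± 1.75 (SD, n = 4). Its share was lower in every mutant library by a narrow margin, with the highest mutant at 58.63% and the lowest wild type at 58.65%.

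**Figure D3:**
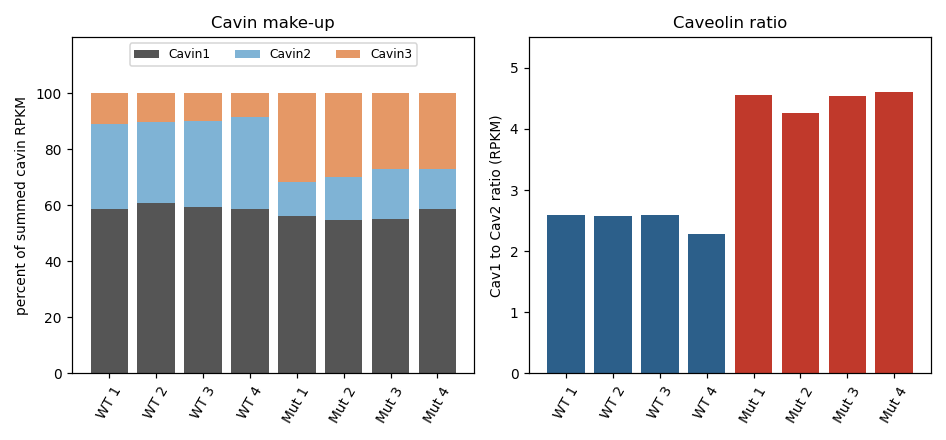
Left, share of each cavin in the summed RPKM of *Cavin1*, *Cavin2* and *Cavin3* (percent, stacked bars, 1 bar per library). Right, ratio of *Cav1* to *Cav2* RPKM in each library (bars from 0, wild type blue, mutant red). The *Cavin3* share averages 9.88% in wild-type and 28.8% in mutant libraries, and every mutant ratio of *Cav1* to *Cav2* is above every wild-type ratio.

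*Ehd2* (ENSMUSG00000074364, chromosome 7, 15946958 to 15967567), whose product is an ATPase at the caveola neck, held 289, 282, 213 and 245 CPM in wild-type libraries 1 to 4 and 523, 467, 394 and 446 CPM in mutant libraries. No library of one group reached into the range of the other. The log2 fold change was 0.83 ± 0.12 (SE, edgeR adjusted p = 2.96e-04). *Pacsin2* (ENSMUSG00000016664, chromosome 15, 83375607 to 83464606), a membrane-bending adaptor of caveolae and of endocytic carriers, held 84.9, 86.2, 69.9 and 77.3 CPM in wild-type and 93.4, 97.5, 89.3 and 101 CPM in mutant libraries. The gap between its groups was narrow, with a log2 fold change of 0.26 ± 0.08 (SE, edgeR adjusted p = 0.0226). The call on *Pacsin2* was lost without mutant replicate 2 (adjusted p = 0.0550, same edgeR test), wild type replicate 3 (0.0558) or wild type replicate 4 (0.0552), with upper quartile normalization (0.0513) and with scaling to endothelial genes (0.0698), while over all 17 alternatives the adjusted p reached down to 0.00587.

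**Figure D4:**
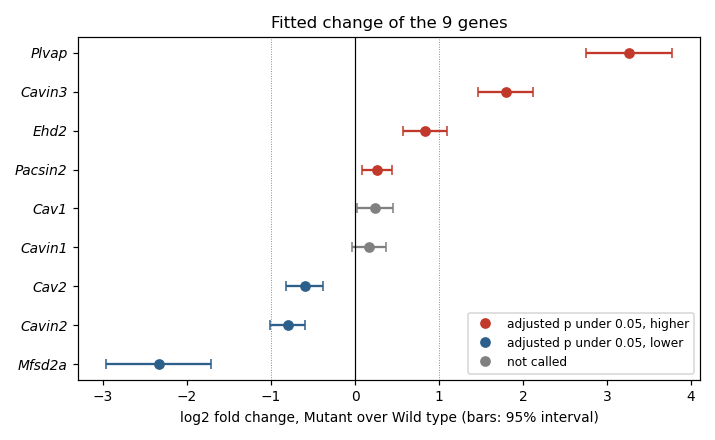
Fitted log2 fold change of mutant over wild type (horizontal axis) for the 9 genes, with the 95% interval of each gene's own fit. Red and blue points passed an adjusted p of 0.05 as higher and lower, grey points did not, and dotted lines mark a 2-fold change. *Plvap* at 3.26 and *Mfsd2a* at -2.34 are the ends of the range.

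Levels of the 9 genes were ordered by RPKM within each group. In wild-type ECs the order was *Mfsd2a* (297 ± 26.9, SD, n = 4), *Cavin1* (121 ± 10.7), *Cav1* (86.9 ± 11.2), *Cavin2* (62.6 ± 5.53), *Ehd2* (50.3 ± 6.90), *Cav2* (34.7 ± 4.15), *Pacsin2* (20.5 ± 1.94), *Cavin3* (20.2 ± 3.37) and *Plvap* (15.7 ± 2.00). Neighbours in this order overlapped between libraries for *Cavin2* and *Ehd2*, for *Pacsin2* and *Cavin3*, and for *Cavin3* and *Plvap*. In mutant ECs *Plvap* came first (150 ± 51.2, SD, n = 4), then *Cavin1* (136 ± 12.4), *Cav1* (102 ± 6.13), *Ehd2* (89.4 ± 10.5), *Cavin3* (70.1 ± 12.4), *Mfsd2a* (58.7 ± 26.0), *Cavin2* (35.9 ± 3.83), *Pacsin2* (24.5 ± 1.32) and *Cav2* (22.8 ± 2.18). There the only neighbours whose libraries did not overlap were *Cavin1* and *Cav1*, and *Cavin2* and *Pacsin2*. By these means *Plvap* went from the last place to the first, and *Mfsd2a* from the first to the sixth. In single libraries *Plvap* was first in mutant libraries 1 and 4, while it lay below *Cavin1* in libraries 2 and 3 and also below *Cav1* in library 2. By CPM, without length, it came at place 4 in mutants and *Mfsd2a* at place 5.

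The library labels start with 1 of 3 prefixes, each with as many mutant as wild-type libraries. That is also how pups were matched within litters, but no source used here says that a prefix marks a litter. Within the prefix of replicates 1 and 2, of replicate 3 and of replicate 4, the difference of mean log2(CPM + 0.5) between mutant and wild type was -2.48, -1.64 and -3.20 for *Mfsd2a* and 3.28, 2.72 and 3.44 for *Plvap*. For *Cavin3* it was 1.78, 1.75 and 1.78, for *Cavin2* -0.86, -0.46 and -1.03, and for *Cav2* -0.64, -0.34 and -0.76. All 9 genes kept 1 sign over the 3 prefixes, 2 of which hold 1 library per group and give no test.

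Other genes of vesicle uptake were counted in 4 lists, beside a median log2 fold change of -0.02 over all genes tested. The counts of each list stand beside 21.5% of all genes tested called higher, 22.9% lower and 44.4% in either direction. Among relatives of the caveola proteins and of MFSD2A, *Ehd1*, *Ehd3* and *Ehd4* were higher, and the other 4 of 7 tested genes were not called (median 0.31). These 4 were *Cavin4*, *Pacsin1*, *Pacsin3* and *Mfsd2b*, all of low abundance, with group means of 1.73 to 5.11 CPM. The median is the value of *Mfsd2b*, which is a relative of *Mfsd2a* and not of a caveola gene. These EHD proteins act in the recycling of endosomes. *Ehd3* changed most, from 14.2 ± 2.97 CPM (SD, n = 4) to 49.6 ± 7.44 CPM (SD, n = 4), a log2 fold change of 1.80 (adjusted p = 2.24e-05, edgeR's quasi-likelihood test). *Ehd4* rose 1.89-fold and *Ehd1* 1.45-fold, and were named after their values were seen because the count was small. With *Ehd2*, all 4 EHD genes of the mouse were higher in mutant ECs under all 17 alternatives. This count includes *Ehd1* and *Ehd4*, so it too was made after the values were seen. The muscle caveolin *Cav3* was at or near 0 in every library, with at most 0.112 CPM, and was not tested.

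The clathrin coat, with dynamins that cut vesicles from the membrane, showed no common direction, with 4 of 16 genes higher, 5 lower and 7 not called (median -0.10). *Ap2s1*, a subunit of the AP-2 adaptor, rose most, from 40.7 to 59.0 CPM (log2 fold change 0.54). *Dnm3*, a dynamin, fell most, from 54.2 to 23.7 CPM (log2 fold change -1.19, adjusted p = 1.59e-04, edgeR's quasi-likelihood test). Of the 14 genes of endosome sorting and vesicle fusion, 3 were higher, 1 was lower and 10 were not called (median 0.06). *Eea1*, an early endosome tether, rose by 0.45 on the log2 scale, and *Nsf*, the ATPase that recycles SNARE proteins, fell by 0.22 on that scale, a call that was kept in 9 of 17 alternatives.

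In the list of receptors that carry cargo across or into ECs, 7 of 13 genes were lower, 2 higher and 4 not called (median -0.55). The list also holds *Nos3*, which encodes an enzyme and not a receptor. *Nos3* is among the 7 lower genes, and its value is the median. *Tfrc*, the transferrin receptor, held 2390, 2583, 2117 and 2566 CPM in wild-type libraries 1 to 4 and 154, 439, 652 and 189 CPM in mutant libraries. It was lower in every mutant library, and here too libraries 1 and 4 were the lowest. Its log2 fold change was -2.75 ± 0.40 (SE, edgeR adjusted p = 3.97e-04). *Fcgrt*, the neonatal Fc receptor of immunoglobulin transport, fell from 170 ± 18.9 to 62.0 ± 11.9 CPM (SD, n = 4 each). *Vldlr*, the receptor of very low density lipoprotein, rose from 4.54 ± 1.24 to 20.5 ± 6.39 CPM (SD, n = 4 each), a log2 fold change of 2.17 (adjusted p = 8.82e-05, same edgeR test). The other higher gene of this list was *Ager*, named after its values were seen, at 10.6 CPM in mutant and 6.43 CPM in wild-type ECs.

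**Figure D5:**
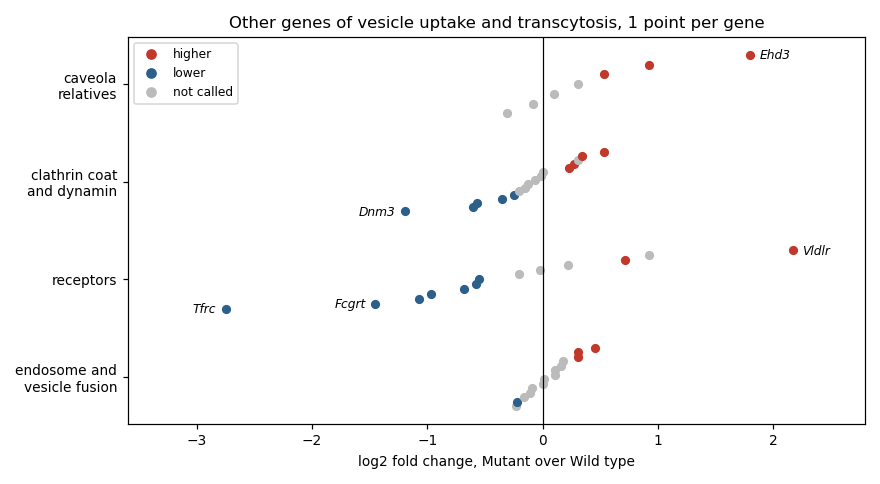
Log2 fold change of mutant over wild type (horizontal axis) for every tested gene of 4 lists of vesicle uptake (rows), 1 point per gene. Red and blue points passed an adjusted p of 0.05 as higher and lower, grey points did not, and genes labelled in the plot are past 2-fold. The receptors spread from -2.75 for *Tfrc* to 2.17 for *Vldlr*.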

How the data were processed

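RNA of brain ECs was sequenced from poly(A) libraries, 1 per pup. Reads had been trimmed (Trimmomatic 0.36) and aligned by STAR 2.5.2b against GRCm38, and the authors deposited whole-number counts per gene, without normalization. The counting program, its annotation and its strand setting are not given in the sources used here. A set of normalized values for part of the genes was not used here. The GENCODE vM21 table gave a symbol for 48970 of the 49315 identifiers.

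The tests were run with edgeR 4.0.16 in R 4.3.3 (TMM, filterByExpr with a minimum count of 10, glmQLFit, glmQLFTest), fitted on all 16887 genes passing the filter, with no covariate. P-values were adjusted by Benjamini-Hochberg over all of them. A gene was called at an adjusted p under 0.05. Exon lengths for RPKM are those of the count files. Libraries of a group differed by more than sampling noise (chi-square per degree of freedom of 7.29 to 41.8 over 12 pairs). Libraries held 24833373 to 34196955 counts, and for these genes differences between pups exceed the counting error. The code was tested on simulated data.

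The members and lists were chosen with earlier results of these data known. Named genes are the members, the genes of each list past 2-fold, or the largest called rise and fall where fewer than 2 were, and the 3 genes most like *Mfsd2a* and *Plvap*. The values of 1 listed gene are not reported here. Alternatives were DESeq2 1.42.0, other normalizations, filters and thresholds, a replicate or prefix block, and each library left out.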

Additional observations from a re-analysis of the deposited data

How the results depend on the processing

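Of 153 values of the 9 members under 17 alternatives each, 143 kept their direction and side of the threshold. The rest were those of *Cav1* and *Pacsin2*, and no member changed sign. The adjusted p of *Cav1* was under 0.05 with DESeq2 (log2 fold change 0.26), with the replicate block (0.24) and with the label prefix block (0.24), and its values with each library left out ran from 0.17 to 0.31. *Pacsin2* lost its call with upper quartile normalization (0.20) and with scaling to endothelial genes (0.21), and ran from 0.21 to 0.31 with each library left out. The causes were not tested. With a change of over 2-fold required, 2 members were higher and 1 lower, and 1 gene among the caveola relatives, 1 of the clathrin coat, 4 receptors and 0 endosome genes, whose fitted changes were all smaller, were called, against 3, 9, 9 and 4 at an adjusted p under 0.05 alone in edgeR. With a mean of at least 100 counts required, the median of the relatives was 0.71, since fewer genes were tested. The median of the endosome list was -0.0039 with upper quartile normalization, 0.0042 with total counts and -0.0013 with scaling to endothelial genes. Ordered by CPM without length, 7 of 9 genes kept their place in wild type and 4 in mutants. Over all genes, 2356 were past 2-fold, and 1201 with the filter at a mean of 100 counts.

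Same-numbered mutant and wild-type libraries had correlations of their deviations of 0.24, 0.24, 0.32 and 0.04, and 2 of 4 mutants correlated best with their own number. Of the others, mutant 2 correlated best with wild type 1, which has the same label prefix, and mutant 4 with wild type 3, which has another. Pups were matched within litters, but no source used here ties a number or prefix to a litter and 1 pair was near 0, so the numbers were not taken as pairs. The replicate block moved the number of genes called from 7504 to 8162, and the label prefix block moved it to 8610. Antisense or overlapping reads cannot be separated, and isoforms are not resolved.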
